A study of Mus musculus with 8 samples.

Results

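The 7 enzymes described here carry one-carbon units on folate, and they were found as the rows of the count table whose Ensembl gene IDs map, in GENCODE M21, to Shmt2, Mthfd2, Mthfd1l and Aldh1l2, which act in mitochondria, and to Shmt1, Mthfd1 and Aldh1l1, which act in the cytosol. All 7 of 7 were found among the 21859 gene IDs of the table. RNA was sequenced from 8 cultures of PER-M60, a mouse line that the labels call leukaemia cells. The control group is 4 cultures in control media, and the other group is 4 cultures in osteoclast-conditioned media, that is, media conditioned by osteoclasts, the cells that resorb bone. All 8 cultures come from 1 line, so p-values measure the spread between cultures of that line. The labels give no further treatment, time or genetic change for either group.

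Folate one-carbon metabolism moves single carbons, taken mainly from serine, onto tetrahydrofolate (THF) and hands them to the synthesis of purines, thymidylate and methionine. Mitochondria and the cytosol each hold a set of enzymes for this. In mitochondria SHMT2 splits serine, MTHFD2 oxidises the carbon, and MTHFD1L releases it as formate, which leaves for the cytosol. There MTHFD1 puts the formate back onto THF, while SHMT1 can split serine or make it. ALDH1L2 in mitochondria and ALDH1L1 in the cytosol instead oxidise 10-formyl-THF to carbon dioxide and yield NADPH. The mitochondrial set is known to be high in dividing lymphoid and cancer cells, and its genes are known targets of the transcription factor ATF4.

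The sequences just before the transcription starts of 4 members are shown because 3 of these genes (Shmt2, Mthfd2, Mthfd1l) rose together and the fourth (Shmt1) fell. Each is the 150 bases before the start, 5′ to 3′ on the gene's own strand, from RefSeq on GRCm38.p6, with motif matches in capitals.
Shmt2 (chr10:127522445-127522594, minus strand): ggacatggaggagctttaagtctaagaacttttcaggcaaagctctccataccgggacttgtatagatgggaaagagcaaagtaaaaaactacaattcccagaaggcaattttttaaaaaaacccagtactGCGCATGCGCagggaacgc
Mthfd2 (chr6:83317605-83317754, minus strand): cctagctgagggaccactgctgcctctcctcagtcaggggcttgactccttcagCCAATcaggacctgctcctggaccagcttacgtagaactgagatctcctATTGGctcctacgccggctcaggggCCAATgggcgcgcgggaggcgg
Mthfd1l (chr10:3972925-3973074, plus strand): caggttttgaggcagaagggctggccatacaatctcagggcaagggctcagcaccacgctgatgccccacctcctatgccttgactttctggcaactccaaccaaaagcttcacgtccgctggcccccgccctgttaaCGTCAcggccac
Shmt1 (chr11:60811266-60811415, minus strand): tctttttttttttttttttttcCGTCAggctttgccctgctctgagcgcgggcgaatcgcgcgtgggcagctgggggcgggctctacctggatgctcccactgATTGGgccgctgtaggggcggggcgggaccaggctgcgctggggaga

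Of the 7 members, 6 had an entry in the RefSeq promoter table, all but Aldh1l2. Starts annotated elsewhere were not searched. For Mthfd2, Shmt1 and Aldh1l1 the start used lies inside the gene's span in GENCODE M21. The 250 bases before the start were searched on both strands for 5 motifs: the core of the ATF4 composite element (TGATGNAA), the E-box bound by MYC (CACGTG), the CCAAT box (CCAAT, or ATTGG on the other strand), the palindrome bound by NRF-1 (GCGCA joined to its reverse complement TGCGC) and the core of the cAMP response element, CRE (TGACG, or CGTCA on the other strand). The last 2 were chosen after these promoters had been read. The ATF4 core and the E-box had 0 matches in the 6 members; they occur in 3.53% and 6.05% of the 27025 promoters in the table. Mthfd2 held 3 CCAAT matches, and Shmt1, Mthfd1 and Aldh1l1 held CCAAT matches too, a motif found in 34.5% of all promoters. The NRF-1 palindrome lay 19 to 10 bases before the Shmt2 start and occurs in 0.781% of promoters. Mthfd1l and Shmt1 held the CRE core, which 17.9% of promoters hold. Among the members that rose, 0 motifs were shared by all 3 printed promoters. Over the 8547 promoters of tested genes alone, the shares were 1.93% for the ATF4 core, 8.62% for the E-box, 37.1% for CCAAT, 1.84% for the NRF-1 palindrome and 28.1% for the CRE core. A match is a stretch of letters, not a measured binding site.

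Library totals ran from 15391754 to 21637966 counts. Levels are given as normalised CPM (counts scaled to the TMM-adjusted library size), on which 3 counts equalled 0.138 to 0.194 depending on the library. Markers of the B lineage were abundant, among them Pax5, a transcription factor that defines the lineage, at 1206 and 1317 normalised CPM in control and conditioned medium. Of 9 such markers, 6 rose with the medium and 1 fell, beside 15.7% and 14.8% of all tested genes. Their summed level was 4394 to 4424 in control and 4675 to 4708 in conditioned cultures. Of 11 osteoclast markers, the defining Ocstamp and Dcstamp were at 0 in all samples and Ctsk had 0 to 5 counts. The summed osteoclast list was 128 to 135 normalised CPM in control and 139 to 145 in conditioned medium, carried by Nfatc1, Acp5 and Itgb3. Of these, Nfatc1 rose (log2 difference 0.15, SE 0.03, edgeR's adjusted p = 0.000806), Itgb3 fell (-0.25, SE 0.08, adjusted p = 0.0185) and Acp5 was not called. Of 8 macrophage markers, C1qa, C1qb and Marco were at 0, and the sum was 20.6 to 22 in control and 21.4 to 25.1 in conditioned medium. Most of that sum was Mrc1 (14.3 and 14.7 normalised CPM, not called), while Lyz2, the lysozyme of myeloid cells, rose from 4.46 ± 0.406 to 5.91 ± 0.865 (log2 difference 0.40, SE 0.12, edgeR's adjusted p = 0.0119). Of the 5 T cell markers found in the table, Cd3g and Cd8a were at 0 and the rest had at most 3 counts in a sample. The part of the changes in these marker lists in the results below was not tested. In bulk RNA, more cells with a transcript and more transcript per cell cannot be told apart.

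Levels within the pathway were compared per kilobase of exon. Shmt2 was the most abundant member, with 310 ± 6.13 normalised CPM per kb in control and 372 ± 2.23 in conditioned medium (SD, n = 4 each), which placed it 78th among 10725 tested genes with a known length. In control medium Mthfd1l followed at 69.2 ± 1.99, then Mthfd2 at 54.9 ± 1.59, Mthfd1 at 52.5 ± 1.12 and Shmt1 at 45.4 ± 0.486. The levels per kb of Mthfd2 and Mthfd1 nearly touched there, with the lowest Mthfd2 culture at 53.95 and the highest Mthfd1 culture at 53.87. In conditioned medium Mthfd2 (79 ± 0.770) and Mthfd1l (78.8 ± 0.780) could not be ordered beyond their spread, followed by Mthfd1 at 51.6 ± 0.919 and Shmt1 at 40.6 ± 0.945. Aldh1l2 was far lower, at 0.935 ± 0.112 per kb in control and 3.72 ± 0.284 in conditioned medium, and Aldh1l1 lay under the floor in most cultures. With the longest transcript as the length, Mthfd2 came before Mthfd1l in both media (91.9 against 83.3 per kb in control), so that order depends on the gene model.

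**Figure D1:**
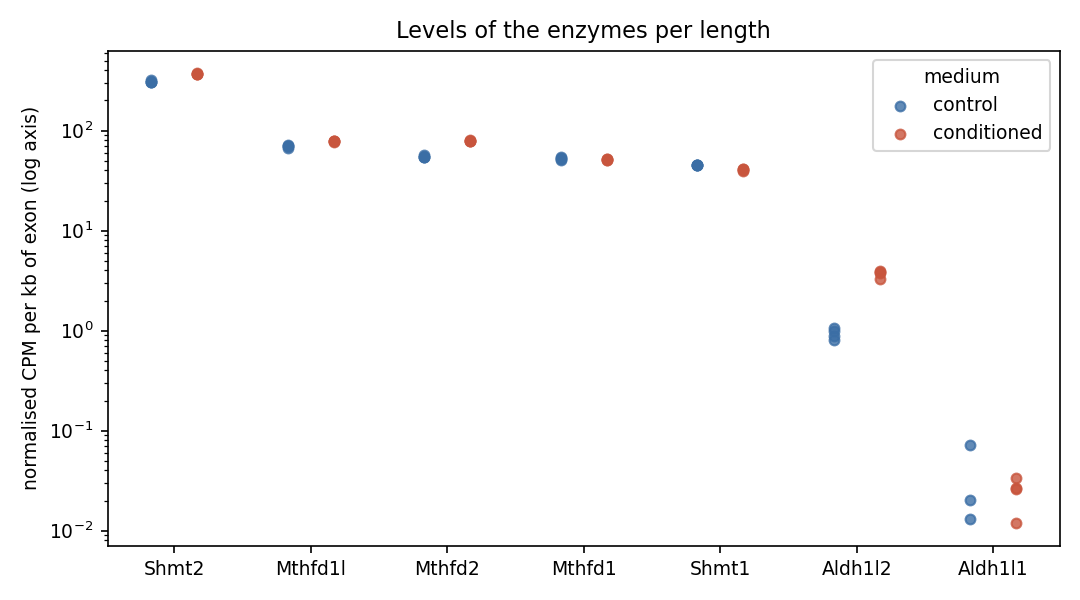
Normalised CPM per kb of exon (log axis) of the 7 enzymes, ordered by their level in control medium, with 1 point per culture (4 control, 4 conditioned). Shmt2 stands highest at about 310 and 372 per kb, and Aldh1l2 is the member whose media lie farthest apart; control replicate 4 of Aldh1l1, at 0 counts, cannot be drawn on a log axis.

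Of the 6 members that could be tested, 5 differed between media, beside 30.5% of all 10729 tested genes. All 4 mitochondrial enzymes rose in osteoclast-conditioned medium, as 15.7% of all tested genes did. Of the 3 cytosolic enzymes, Shmt1 fell, Mthfd1 did not pass the test and Aldh1l1 was too low to test; 14.8% of all tested genes fell. The median log2 fold change was 0.39 over the 4 mitochondrial enzymes and -0.09 over the 2 tested cytosolic ones, beside -0.01 over all tested genes. Cultures of the media did not overlap in 5 of the 6 tested members and in 28.2% of all tested genes; the conditioned cultures were the higher in 4 members (15.2% of all tested genes) and the lower in 1 (12.9%). These counts describe the pathway and do not set it apart from other genes.

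**Figure D2:**
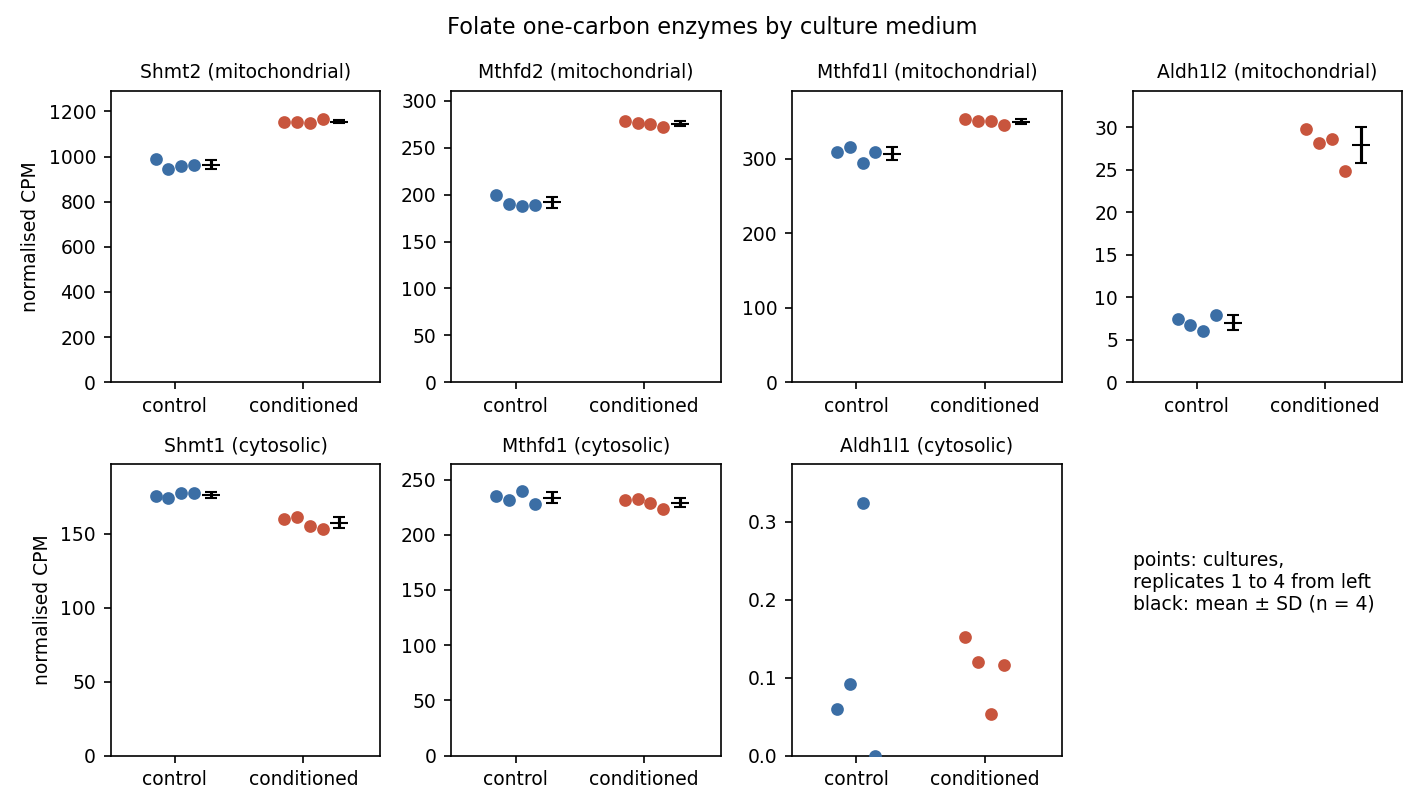
Normalised CPM of each enzyme in each culture, with axes from 0; points are replicates 1 to 4 from left to right and black bars are mean ± SD (n = 4), left out for Aldh1l1. The conditioned cultures lie above all control cultures for Shmt2, Mthfd2, Mthfd1l and Aldh1l2 and below them for Shmt1.

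Shmt2, serine hydroxymethyltransferase of the mitochondrion, feeds the pathway with carbon from serine (ENSMUSG00000025403; chromosome 10, 127517123 to 127522444, minus strand, GRCm38). Its level was 991, 945, 960 and 962 normalised CPM in control replicates 1 to 4. In conditioned replicates 1 to 4 it was 1153, 1155, 1148 and 1164. Every conditioned culture lay above every control culture. The mean went from 965 ± 19.1 to 1155 ± 6.94 normalised CPM (SD over 4 cultures of each medium), which is 0.26 on the log2 scale (SE 0.02, 95% interval 0.21 to 0.31; edgeR adjusted p = 2.06e-09). Mthfd2 and Aldh1l2 changed more in relative terms, but Shmt2 accounted for 190 of the 338 CPM by which the sum of the 4 mitochondrial enzymes differed.

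Mthfd2, the mitochondrial dehydrogenase and cyclohydrolase that turns methylene-THF into 10-formyl-THF, showed the second largest relative rise (ENSMUSG00000005667; chromosome 6, 83305691 to 83325908, minus strand). Control replicates 1 to 4 had 199.8, 190.1, 188 and 188 normalised CPM. Conditioned replicates had 278, 277, 275 and 272. The groups were far apart, and the highest control culture, replicate 1, lay well below the lowest conditioned one. The mean went from 192 ± 5.54 to 275 ± 2.69, a log2 fold change of 0.52 (SE 0.03, 95% interval 0.47 to 0.58; edgeR adjusted p = 5.44e-15), which was the 10th smallest p-value of all tested genes.

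Mthfd1l, the mitochondrial synthetase that releases formate, rose least (ENSMUSG00000040675; chromosome 10, 3973118 to 4167081, plus strand). It had 310, 315, 295 and 308 normalised CPM in control replicates 1 to 4. It had 353, 351, 350.1 and 345 in conditioned replicates 1 to 4. The groups did not overlap. The log2 fold change was 0.19 (SE 0.03, 95% interval 0.13 to 0.24; edgeR adjusted p = 2.51e-06), a linear change of 1.14-fold.

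Aldh1l2, the mitochondrial 10-formyl-THF dehydrogenase, was the least abundant of the 4 and changed most (ENSMUSG00000020256; chromosome 10, 83487450 to 83534140, minus strand). Its counts were 125, 145, 93 and 141 in control replicates 1 to 4. They were 586, 471, 534 and 426 in conditioned replicates. Scaled, control cultures had 7.4, 6.69, 6.02 and 7.96 normalised CPM and conditioned cultures 29.8, 28.2, 28.7 and 24.9, so the lowest conditioned culture lay well above the highest control culture. The fold change was 3.97 (95% interval 3.55 to 4.44), or 1.99 on the log2 scale (SE 0.08; edgeR adjusted p = 7.00e-18), the sixth largest rise of all tested genes. Its share of the summed CPM of the 4 mitochondrial enzymes went from 0.477% ± 0.0535 to 1.54% ± 0.116 (SD, n = 4 each). Of its 7503 exonic bases, 1056 (14.1%) also lie in exons of D10Wsu102e on the opposite strand, and whether the counting used strand is not given in the sources used here. D10Wsu102e itself had 1312 to 2014 counts and did not pass edgeR's test (log2 difference 0.05, SE 0.04, adjusted p = 0.280).

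Shmt1, the cytosolic serine hydroxymethyltransferase, moved the other way (ENSMUSG00000020534; chromosome 11, 60788104 to 60811718, minus strand). Control replicates 1 to 4 had 175, 174, 178 and 178 normalised CPM. Conditioned replicates had 159.8, 161, 155 and 154. All conditioned cultures lay below all control cultures. The mean went from 176 ± 1.89 to 158 ± 3.67, a log2 fold change of -0.16 (SE 0.03, 95% interval -0.22 to -0.10; edgeR adjusted p = 5.83e-05). Its exons share 184 bases (4.74%) with Smcr8 on the opposite strand, a gene with 1166 to 1711 counts that rose (log2 fold change 0.16, edgeR adjusted p = 0.000567).

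Mthfd1 is a single cytosolic protein that carries the synthetase, cyclohydrolase and dehydrogenase steps (ENSMUSG00000021048; chromosome 12, 76255298 to 76319803, plus strand). It had 235, 232, 239 and 228 normalised CPM in control replicates and 232, 232, 228 and 224 in conditioned replicates. The groups overlapped, and edgeR's test was not passed (log2 difference -0.03, SE 0.03, adjusted p = 0.503). Its 95% interval, -0.08 to 0.03, leaves out a rise of the size seen for Mthfd1l. Aldh1l1, the cytosolic 10-formyl-THF dehydrogenase (ENSMUSG00000030088; chromosome 6, 90486427 to 90600203, plus strand), had 1, 2, 5 and 0 counts in control and 3, 2, 1 and 2 counts in conditioned replicates 1 to 4. A difference in it was not detectable at this depth, and intervals and floors of such counts cover counting error only.

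Whether a mitochondrial enzyme and its cytosolic counterpart changed unequally was tested on their ratio inside each library, which does not depend on library scaling. The ratio of Shmt2 to Shmt1 counts per kb was 7.06, 6.79, 6.74 and 6.76 in control replicates 1 to 4 and 9.01, 8.93, 9.23 and 9.47 in conditioned replicates. It was 1.34-fold higher in conditioned medium (log2 difference 0.42), with all 4 conditioned cultures above all 4 control cultures. The ratio of Mthfd2 to Mthfd1 ran from 1.00 to 1.08 in control and from 1.52 to 1.55 in conditioned medium, 1.46-fold higher. The ratio of Mthfd1l to Mthfd1 ran from 1.23 to 1.36 and from 1.51 to 1.55, 1.16-fold higher. For each of these 3 pairs the two-sided exact permutation test over the 8 cultures gave p = 0.0286, the smallest that 4 against 4 allow, and 0.0286 after Benjamini-Hochberg adjustment over the 3. The pairs with Mthfd1 share that gene and are not independent. With Aldh1l1 at 0 to 5 counts, its ratio to Aldh1l2 was not tested.

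**Figure D3:**
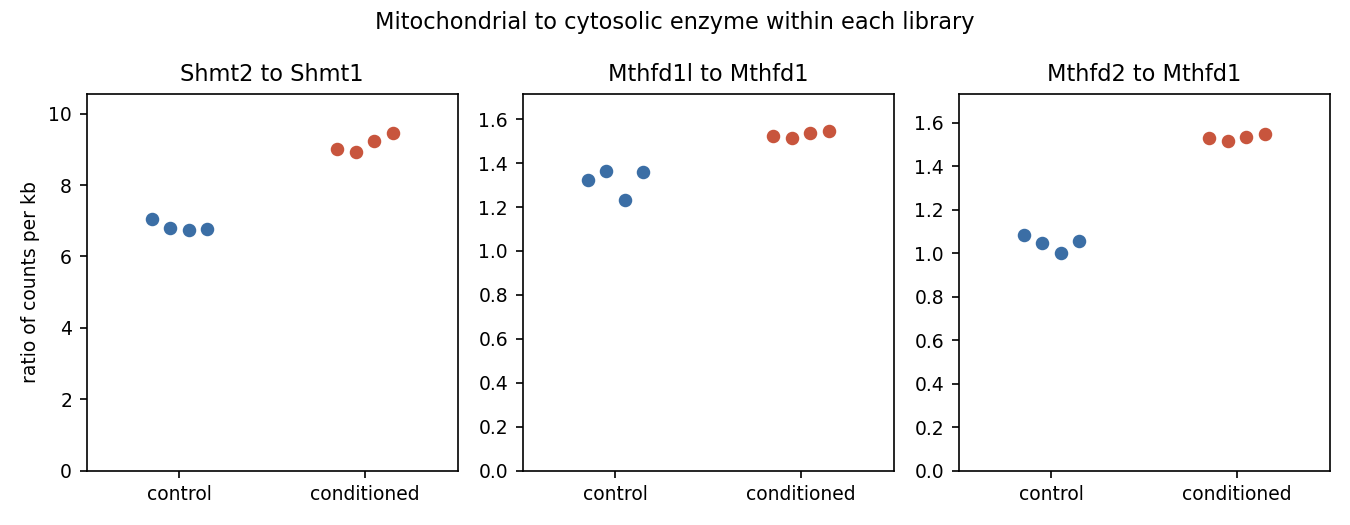
Ratio of counts per kb of a mitochondrial enzyme to its cytosolic counterpart within each library, with axes from 0 and replicates 1 to 4 from left to right. In the 3 panels every conditioned culture lies above every control culture, and the widest relative gap is that of Mthfd2 to Mthfd1 (1.46-fold).

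The counterparts are related in sequence, and how long a stretch they share was measured. The longest coding sequences in GENCODE M21 were 64.6% identical between Shmt2 and Shmt1, 63.5% between Mthfd1l and Mthfd1 and 71.8% between Aldh1l2 and Aldh1l1, over the aligned bases. The longest identical run was 19 bases for Shmt2 and Shmt1, 20 for Mthfd1l and Mthfd1, 14 for Mthfd2 and Mthfd1 and 22 for Aldh1l2 and Aldh1l1. The summed level of the 4 mitochondrial enzymes was 1449 to 1508 normalised CPM in control and 1802 to 1814 in conditioned cultures. The summed cytosolic level was 405 to 417 and 377 to 394. The quotient of the sums went from 3.59 ± 0.0865 to 4.68 ± 0.0841 (SD, n = 4 each), and it is carried mainly by Shmt2, which made up 65.6% ± 0.579 of the mitochondrial sum in control and 63.9% ± 0.406 in conditioned medium. Unlike the ratios per kb, these sums, their quotient and the shares are not scaled by exon length and depend on it.

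The rest of the folate pathway was described with lists of uptake and storage and of interconversion and glycine cleavage. Further lists held genes tied to the use of one-carbon units (consumers) and genes of serine supply. In the uptake and storage list, 0 of 5 tested genes passed edgeR's test, which 30.5% of all tested genes passed, and 2 had an unadjusted p under 0.05; DESeq2 and limma-voom also called 0. Those 2 had values of opposite sign and the largest of the list: Ggh, which removes the glutamate tail of folate, had a log2 difference of 0.21 (SE 0.08, edgeR's adjusted p = 0.0577), and the folate receptor Folr2, at 13 to 27 counts, had -0.54 (SE 0.24, adjusted p = 0.0883). The reduced folate carrier Slc19a1 had a log2 fold change of -0.04 (SE 0.05), the mitochondrial folate carrier Slc25a32 of -0.06 (SE 0.04) and Fpgs, which adds the glutamate tail that keeps folate in cells, of -0.05 (SE 0.03). Without control replicate 3, conditioned replicate 3 or conditioned replicate 4, 1 gene of this list was called. Folr1 and Slc46a1 were at 0 and at 2 to 7 counts and were not tested.

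Of 10 reported genes of folate interconversion and glycine cleavage, 6 were tested, 2 rose and 1 fell, beside 15.7% and 14.8% of all tested genes. Gldc, the decarboxylase of the mitochondrial glycine cleavage system, went from 386 ± 21.7 to 493 ± 13.7 normalised CPM (log2 fold change 0.35, SE 0.03, edgeR adjusted p = 1.29e-08). The cultures of the media did not overlap in Gldc. The other subunits of glycine cleavage did not follow Gldc as one: Dld, shared with the pyruvate dehydrogenase complex, rose by 0.10 on the log2 scale, Gcsh fell by 0.11, and Amt, at 5 to 21 counts, had a value of -0.23 (SE 0.35). The calls of Dld and Gcsh were narrow. The adjusted p of Dld was 0.0550 to 0.0930 without control replicate 1 or 3 or conditioned replicate 1, 2 or 3, and that of Gcsh 0.0507 to 0.113 without control replicate 1 or 4 or conditioned replicate 1, 2 or 4. Without control replicate 1 or conditioned replicate 1 or 2, Gldc was the 1 reported gene of this list still called. Mthfd2l, the mitochondrial relative of Mthfd2, was low (5.27 and 5.82 normalised CPM) with a log2 difference of 0.13 (SE 0.11, edgeR's adjusted p = 0.396). Mthfsd and Ftcd had 0 counts in all samples. The span of Mthfsd lies wholly inside that of Gm20388 on the opposite strand, with 0 shared exonic bases in GENCODE M21. The annotation used for the counting is not given, so whether this affected its counts was not tested.

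Of 6 genes tied to the use of one-carbon units, 1 rose in edgeR's test, 3 had an unadjusted p under 0.05 and DESeq2 called 0. The 1 call is 16.7% of the list, beside 30.5% of all tested genes called. The purine enzymes Gart and Atic had log2 fold changes of -0.02 (SE 0.03 each), and Tyms, thymidylate synthase, had 0.07 (SE 0.03, edgeR adjusted p = 0.0815). Mtfmt, which formylates the initiator tRNA of mitochondria with 10-formyl-THF, had -0.17 (SE 0.08, edgeR adjusted p = 0.102). The gene that rose was Mtr, methionine synthase, by 0.11 on the log2 scale (SE 0.04, edgeR adjusted p = 0.0335). Its adjusted p was 0.0609 to 0.118 without control replicate 1 or 4 or conditioned replicate 1, 2 or 3, and those 5 fits called 0 genes of the list; without control replicate 2, 2 were called.

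**Figure D4:**
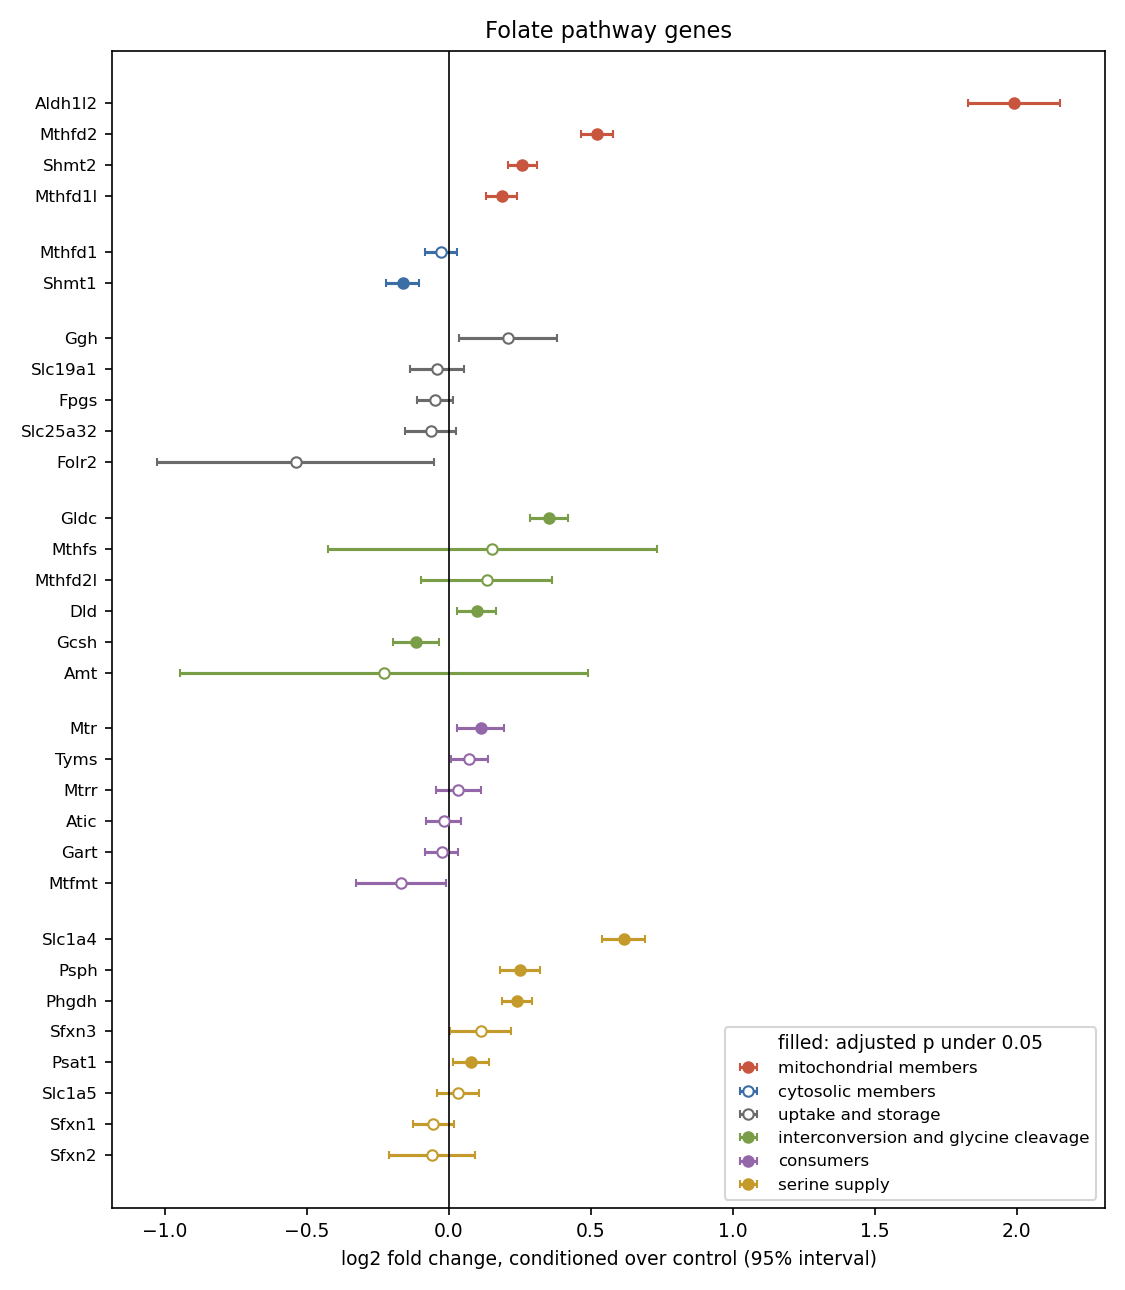
Log2 fold changes (conditioned over control) with 95% intervals from edgeR for the tested members and the reported tested genes of the folate and serine lists; filled points have an adjusted p under 0.05. The 4 mitochondrial members lie right of 0, Shmt1 lies left of it at -0.16, and the consumers lie between -0.17 and 0.11.

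Serine is the main donor of the carbon. Of 8 tested genes of serine supply, 4 rose and 0 fell, beside 15.7% and 14.8% of all tested genes, and the median log2 fold change was 0.10. Slc1a4, a carrier of serine and other small neutral amino acids, changed most (log2 fold change 0.62, SE 0.04, edgeR adjusted p = 7.20e-14). Phgdh and Psph, the first and last enzymes of serine synthesis, rose by 0.24 and 0.25 on the log2 scale (SE 0.03 each, edgeR adjusted p of 1.81e-08 and 1.55e-06). Psat1, the enzyme between them, rose by 0.08, and its adjusted p of 0.0482 became 0.104 to 0.127 without control replicate 1, 3 or 4 or conditioned replicate 1, 2 or 3. Sfxn1, the carrier that brings serine into mitochondria, had -0.05 (SE 0.04, edgeR adjusted p = 0.260).

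Among 7 transcription factors known to act on one-carbon or amino acid genes, 6 rose and 1 fell, with a median log2 fold change of 0.23; of all tested genes, 15.7% rose and 14.8% fell. Atf4 went from 370 ± 15.6 to 432 ± 7.68 normalised CPM (log2 fold change 0.23, SE 0.03, edgeR adjusted p = 3.04e-07), and its relatives and partners Atf5 (1.02, SE 0.05) and Ddit3 (0.64, SE 0.06) rose more, with edgeR adjusted p of 3.45e-09 or less. Cebpb had the largest value (2.46, SE 0.30), on 5 to 43 counts a sample, and was called under all 16 alternatives run for it. Of its exonic bases, 20.7% lie in exons of Tmem189 on the opposite strand, whose reads cannot be told apart without the strand setting. For the Ddit3 ID used, 10.1% of exonic bases are shared with the genes that overlap it. Those are another ID named Ddit3 on the same strand and Mars on the opposite strand. Mycn and Nfe2l2 rose by 0.21 and 0.13. Myc, a known activator of Shmt2 and Mthfd2, fell by 0.11 on the log2 scale (SE 0.03, edgeR adjusted p = 0.00996), with overlapping cultures and an adjusted p of 0.0501 to 0.0600 without control replicate 1 or 4 or conditioned replicate 2 or 3.

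As a description of the compartment, 36 enzymes of the mitochondrial matrix outside folate metabolism (the citric acid cycle, fatty acid oxidation and amino acid breakdown) were set beside the members. Of the 35 tested, 4 rose and 7 fell, so 31.4% were called, beside 30.5% of all tested genes. Their median log2 fold change was -0.02. The largest changes among those called were those of Acadvl, a fatty acid dehydrogenase (-0.29, SE 0.07), Bckdha, of branched-chain amino acid breakdown (0.25, SE 0.06), Ivd, of leucine breakdown (0.22, SE 0.05), and Pcx, pyruvate carboxylase (0.16, SE 0.03), all with edgeR adjusted p of 0.00291 or less. Of the exons of Acadvl and Bckdha, 42.9% and 61.7% are shared with genes on the opposite strand.

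**Figure D5:**
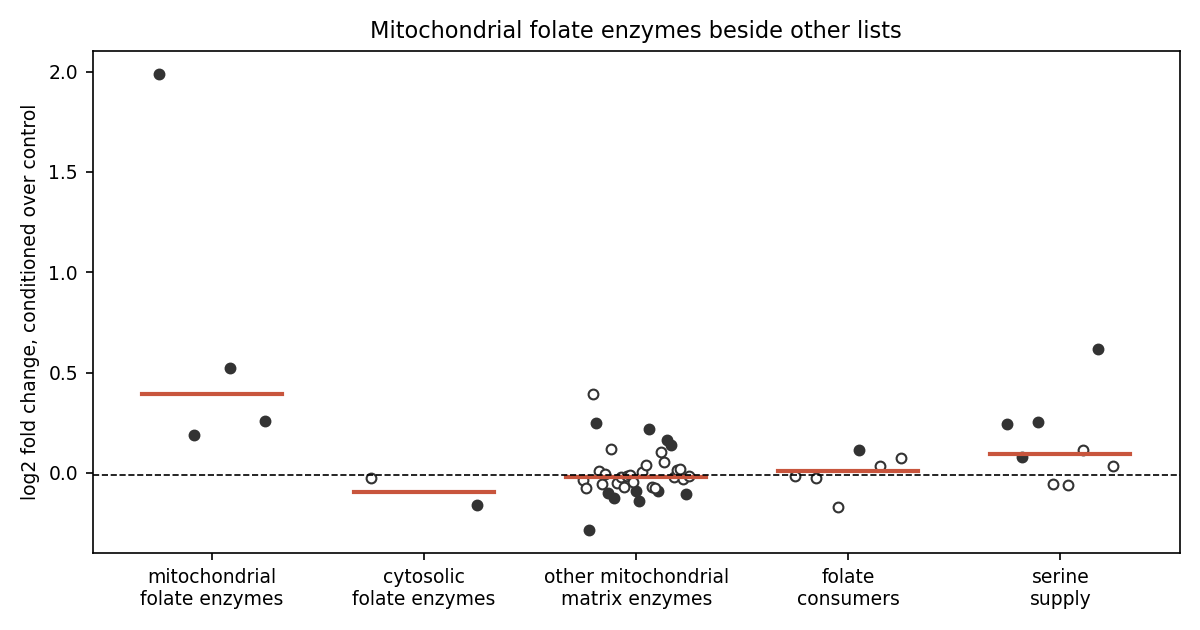
Log2 fold changes (conditioned over control) of the tested genes of 5 lists, 1 point per gene in alphabetical order, filled where the adjusted p is under 0.05; red lines are list medians and the dashed line is the median of all tested genes (-0.01). The median is 0.39 for the 4 mitochondrial folate enzymes and -0.02 for the other matrix enzymes.

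The genes whose profile over the 8 cultures was nearest to that of a member were found by Euclidean distance between log2 CPM values after each gene's mean was removed (9031 candidates averaging 5 CPM or more). Nearest to Aldh1l2 were Fam129a (distance 0.505), the pseudokinase Trib3 (0.624), the G protein subunit Gng4 (0.793) and Bcar3 (1.02), with log2 fold changes of 1.70, 1.58, 1.76 and 1.36. Nearest to Mthfd2 were the lysosomal protease Lgmn (0.125) and Slc7a1, a carrier of cationic amino acids (0.135), with log2 fold changes of 0.50 and 0.45. Tnks (0.0463) and Celsr1 (0.0626) lay nearest to Shmt2, and the elongation factor Eef2 (0.0482) and Fbxo46 (0.0544) nearest to Mthfd1l, with log2 fold changes of 0.24, 0.27, 0.20 and 0.16. The call of Fbxo46 (edgeR adjusted p = 0.0224) was lost without control replicate 3 or conditioned replicate 1 or 3, at 0.0532 to 0.0633. These distances rest mainly on the size of the difference between media, since that is the main variation in each profile.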

How the data were processed

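RNA came from RNeasy columns and libraries from a SureSelect HS2 kit, per the labels' protocols. The table deposited by the authors holds unnormalised counts for each Ensembl gene. STAR 2.7.5a, featureCounts 2.0.1 and the build mm10 are named, with no settings, per the submitters' processing notes; annotation, strand setting and use of molecular barcodes are not given in the sources used here. All 8 columns were matched to samples by header. GENCODE M21 (GRCm38) gave symbols, positions and exon lengths for 21817 of the 21859 IDs.

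Counts passing filterByExpr were TMM-scaled and tested with edgeR 4.0.16 (robust quasi-likelihood, medium as the only term, R 4.3.3), with Benjamini-Hochberg adjustment over all 10729 tested genes and a threshold of 0.05. Standard errors are the absolute log2 change over the square root of F; a log2 profile used a prior count of 2. The scripts were tested on simulated counts. Ratios were tested by exact permutation (scipy 1.17.1). All members are reported. From each other list, up to 4 called genes with the largest change were named; further genes of those lists were named after their values were seen. Of the interconversion list, 2 genes are not reported here. Members and lists were chosen with earlier results of these data known. The alternatives were other scalings, filters and tests (DESeq2 1.42.0, limma 3.58.1), the replicate block, and leaving out each sample.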

Additional observations from a re-analysis of the deposited data

Results flagged for a closer look

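For each tested member and each ratio, the highest or lowest of the 4 cultures of a medium was set against the other 3: its distance from the closest of them was divided by the range of all 4 (Dixon's ratio). Of 18 such groups, 2 exceeded the 95% critical value, as chance does in about 5% of groups. Both fell on control replicate 1. Its Mthfd2 level was 199.8 normalised CPM against 188 to 190.1 in the other control cultures (ratio 0.835), and its log2 ratio of Shmt2 to Shmt1 was 2.82 against 2.75 to 2.76 (ratio 0.861). In both cases the culture lay toward the conditioned group and still below all of it. Without control replicate 1 the log2 fold change of Mthfd2 was 0.55 and the difference in the log2 ratio of Shmt2 to Shmt1 was 0.44.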

How the results depend on the processing

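The 4 rises, the fall of Shmt1 and the missing call of Mthfd1 were the same under 99 of 102 member tests (17 alternatives for each of 6 members). The 3 exceptions came from a test against a 1.2-fold change, which asks for more than a difference from 0: Shmt2 (0.26), Mthfd1l (0.19) and Shmt1 (-0.16) kept their log2 fold change and lost the call, each with an adjusted p of 1.00. That test called 227 genes in all, 2 members, both mitochondrial (Aldh1l2 and Mthfd2), and 4 of the listed pathway and matrix genes. The other alternatives called 2635 to 3578 genes in place of 3273, always 5 members, and 20 to 29 listed genes in place of 27. Scaling by total counts shifted the median gene by -0.02 and made 40.7% of 3395 calls rises, against 51.6% of 3273; the direction of each of the 6 members was the same. Narrow calls outside the members were lost with DESeq2 (Gcsh, Mtr, Psat1, Fbxo46, Idh2 and Etfa) and with total counts (Dld, Mtr and Psat1), and that of Psat1 also with limma-voom and without robust estimation.

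Groups share replicate numbers in the labels. Deviations of same-numbered cultures from their group means correlated from -0.05 to 0.14, and 1 of 4 control cultures correlated best with its own number, so the numbers were not taken as pairs. With the replicate block edgeR called 3446 genes and the same 5 members. In an exact two-sided sign-flip test of the same-numbered differences, which cannot go below p = 0.125 with 4 pairs, the paired differences in log2 ratio were 0.42 (Shmt2 to Shmt1), 0.21 (Mthfd1l to Mthfd1) and 0.55 (Mthfd2 to Mthfd1), each at p = 0.125. Leaving out 1 culture gave 0.41 to 0.44, 0.18 to 0.23 and 0.53 to 0.57, each with an exact p of 0.0571, the smallest that 4 against 3 allow. The fold changes of low genes, such as Aldh1l1 at 0 to 5 counts, are limited by depth.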

Other observations

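The coefficient of variation of normalised CPM was 1.98% in control and 0.601% in conditioned medium for Shmt2, 2.89% and 0.975% for Mthfd2, 2.87% and 0.989% for Mthfd1l, and 12% and 7.64% for Aldh1l2 (n = 4 each). It was larger in control medium for all 4, and for Mthfd1 (2.12% and 1.78%), but not for Shmt1 (1.07% and 2.33%). Counting alone would give 0.693% for Shmt2, 1.42% for Mthfd2 and 1.26% for Mthfd1l in conditioned medium, each above the observed value. The same held for the cytosolic Shmt1 in control medium, at 1.78% from counting and 1.07% observed. For Aldh1l2 counting alone would give 8.91% in control and 4.45% in conditioned medium, each below the observed value. Among all 10729 tested genes, the coefficient was larger in control medium in 6270 (58.4%). The difference in spread was not tested.

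In conditioned medium, replicate 4 had the lowest level of Aldh1l2, Mthfd2, Mthfd1l, Shmt1 and Mthfd1 and the highest of Shmt2. Its Aldh1l2 level was 24.9 normalised CPM against 28.2 to 29.8 in the other conditioned cultures.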
